A study of Macaca mulatta with 8 samples.

Results

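The cytotoxic granule genes described here are GZMA, GZMB, GZMK, PRF1, NKG7, KLRD1 and FASLG, chosen by symbol, and all 7 were found among the 26533 features of single-cell RNA sequencing of macaque retina. The study examined the retina of 2 male Macaca mulatta after subretinal injection of adeno-associated virus (AAV) vectors, from which 8 libraries were made, 1 from each 4 mm retinal punch. In NHP2, aged 6 years, each eye gave a punch from an area injected with AAV8-GRK1-hRPGR, a punch from an area injected with AAV8-GRK1-mScarlet and a punch from an uninjected area. In NHP1, aged 5 years, each eye gave 1 punch that the labels call uninjected, although by the methods of the study both eyes of this animal carried blebs of voretigene neparvovec (AAV2-CAG-hRPE65). AAV8-GRK1-hRPGR carries a human RPGR coding sequence and AAV8-GRK1-mScarlet a red fluorescent reporter, both driven by the GRK1 promoter, which is active in photoreceptors. By the paper the hRPGR vector was given at the higher dose and was of engineering grade, while the mScarlet vector was of laboratory grade. Transgene, dose and preparation thus differ together between the 2 injected areas and cannot be told apart. All retinas were harvested at 1 time point, at the end of follow-up. All eyes, including the uninjected areas, had undergone vitrectomy and had received triamcinolone, a corticosteroid, and by the methods the left eyes also received adalimumab, an antibody to TNF. Right and left eyes are thus the only replicates of an area, all areas of NHP2 come from 1 animal, and p-values measure the spread between these libraries and not between animals.

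Killer cells store granules that fuse with the contact zone of a target cell. Perforin, from PRF1, forms pores in the target membrane and lets in the granzymes, serine proteases of which granzyme B (GZMB) cleaves after aspartate and activates caspases, granzyme A (GZMA) cleaves after basic residues, and granzyme K (GZMK) is known from memory T cells that hold little perforin. NKG7 is a membrane protein of the granule, KLRD1 (CD94) pairs with NKG2 proteins into receptors for the class I molecule HLA-E, and FASLG (Fas ligand) triggers death through the receptor FAS. In the retina, which holds few lymphocytes at rest, these genes are used as marks of cytotoxic T and natural killer (NK) cells.

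The 7 genes lie at 6 places in the Mmul_10 genome. GZMK (ENSMMUG00000020171, chr6:53329124-53338866) and GZMA (ENSMMUG00000001597, chr6:53401482-53408723) are neighbours on the plus strand, 62.6 kb apart. GZMB (ENSMMUG00000014381, chr7:86703929-86707259, minus strand) lies 26.9 kb from GZMH, its closest relative, which is not among the symbols of the features. Of the 950 words of 31 bases in the GZMB transcript, 58 (6.11%) also stand in GZMH, so some GZMB reads could come from GZMH, while the other 6 genes shared no such word with the relatives searched. PRF1 (ENSMMUG00000064708) is at chr9:67182693-67188420, NKG7 (ENSMMUG00000015369) at chr19:51162703-51164180, KLRD1 (ENSMMUG00000018298) at chr11:9390401-9397427 and FASLG (ENSMMUG00000065134) at chr1:29964034-29970894.

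Since the 7 genes moved together between CD8 and CD4 cells, as described further on, the 250 bases upstream of the RefSeq gene start were searched, for GZMA, GZMB, PRF1, NKG7, KLRD1 and FASLG, on both strands for short motifs of factors of killer cells. The RUNX motif TGTGGT was found upstream of 3 of these 6 genes, GZMA, GZMB and NKG7, and upstream of 11.2% of all 20782 genes searched. The AP-1 motif TGANTCA was found at GZMB (5.15% of all genes), the NFAT motif GGAAAA at GZMA and KLRD1 (20.4%), and the T-box motif GGTGTGA (3.6%) and the CRE motif TGACGTCA (1.47%) at none of the 6. The 3 upstream regions that hold TGTGGT are shown from 5′ to 3′ in the direction of the gene, with RUNX and AP-1 matches in capitals, where ACCACA is TGTGGT read on the other strand.
GZMA, chr6:53401232-53401481, plus strand: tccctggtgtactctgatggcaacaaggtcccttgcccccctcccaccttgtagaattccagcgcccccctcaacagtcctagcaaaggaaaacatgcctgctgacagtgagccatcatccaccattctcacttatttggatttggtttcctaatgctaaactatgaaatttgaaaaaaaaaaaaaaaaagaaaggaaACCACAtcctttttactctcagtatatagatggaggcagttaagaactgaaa
GZMB, chr7:86707260-86707509, minus strand: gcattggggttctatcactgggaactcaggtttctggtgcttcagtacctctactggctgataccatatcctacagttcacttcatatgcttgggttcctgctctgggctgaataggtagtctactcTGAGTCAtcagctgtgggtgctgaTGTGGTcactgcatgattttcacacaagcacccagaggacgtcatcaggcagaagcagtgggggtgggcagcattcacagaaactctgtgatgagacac
NKG7, chr19:51164181-51164430, minus strand: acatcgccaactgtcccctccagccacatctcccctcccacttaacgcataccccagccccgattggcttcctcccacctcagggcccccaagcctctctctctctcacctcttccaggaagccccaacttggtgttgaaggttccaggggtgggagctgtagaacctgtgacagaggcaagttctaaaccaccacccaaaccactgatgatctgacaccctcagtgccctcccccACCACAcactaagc
The RUNX matches begin 52 bases before the start of GZMA, 99 before GZMB and 14 before NKG7, and the RUNX and AP-1 matches at GZMB do not overlap. A match of letters is a description of the sequence and was not tested for binding.

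Libraries held 90634306 to 146519011 unique molecular identifiers (UMIs, each counting 1 captured RNA molecule) and 9562 to 15080 cells of at least 1500 UMIs. Of 83192 cells clustered, 929 formed the T/NK-like class, with a median of 4404 UMIs per cell, in which all 15 T/NK markers were higher than in other cells and CD3E was detected in 96.0% of cells. Of these cells 15 had no CD3D, CD3E or CD3G UMI. The class held 243 cells from the mScarlet area of the right eye and 435 from that of the left, 105 and 37 from the hRPGR areas, 24 and 36 from the uninjected areas of NHP2 and 2 and 47 from NHP1, so the mScarlet areas weigh most in any pooled share. Pairs of libraries shared 135 to 255 cell barcodes over 28 pairs.

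The 7 genes were read mostly from T/NK-like cells. Of all UMIs in clustered cells, this class held 98.9% of those of GZMA, 98.8% of GZMK, 98.5% of PRF1, 98.1% of FASLG, 97.9% of KLRD1, 88.3% of NKG7 and 84.9% of GZMB. For GZMB a further 13.2% of its UMIs came from the 108 cells of the B-like class, where 6 cells held 1031 of the 1036 GZMB UMIs. The rest of NKG7 was spread over many classes, with 3.88% of its UMIs in unnamed, 2.54% in rod-like, 1.78% in Müller-like and 1.61% in bipolar-like cells. Müller-like glia, which should express none of the 7, held no UMI of 6 of them in 6881 cells (median 5164 UMIs), which allows up to 0.0436% of these cells to carry such a UMI and sets no limit on cells expressing the gene. NKG7 was seen in 1.41% of Müller-like cells and in 0.520% of 27684 rod-like cells (median 6079.5 UMIs), against 70.7% of T/NK-like cells, and the source of these UMIs was not tested.

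CD8 T cells recognise antigen on class I and CD4 T cells on class II molecules, and killing by granules is chiefly the work of CD8 cells. The T/NK-like cells were split by UMIs into 448 CD8 cells (CD8A or CD8B and no CD4), 234 CD4 cells (CD4 only), 239 with neither and 8 with both. CD8 cells made up 51.9% of T/NK-like cells in the mScarlet area of the right eye and 48.3% in that of the left, 35.2% and 43.2% in the hRPGR areas, 66.7% and 41.7% in the uninjected areas of NHP2 and 55.3% in NHP1 left. NHP1 right had only 2 T/NK-like cells, both CD8.

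Among CD8 cells of all libraries, 95.3% had an NKG7 UMI, 75.9% GZMB, 72.3% GZMK, 56.0% PRF1, 52.0% GZMA, 51.1% FASLG and 48.0% KLRD1. Among CD4 cells the shares were 35.5% for NKG7, 25.2% for GZMK, 18.8% for GZMB, 9.83% for FASLG, 6.84% for GZMA, 5.13% for PRF1 and 0.427% for KLRD1. Each of the 7 shares was thus higher in CD8 cells. Because deeper cells show more genes, each cell was also thinned at random to 1500 UMIs. The thinned shares in CD8 cells, over the 7 libraries with at least 10 such cells, were 80.5% ± 8.95 for NKG7, 63.0% ± 9.39 for GZMK, 58.2% ± 18.6 for GZMB, 32.6% ± 10.5 for GZMA, 21.1% ± 9.08 for KLRD1, 19.0% ± 14.0 for PRF1 and 18.4% ± 7.25 for FASLG (SD, n = 7). In CD4 cells, over the 4 libraries with at least 10 such cells, they were 27.0% ± 8.88, 19.3% ± 7.10, 11.6% ± 9.63, 3.23% ± 3.73, 0%, 1.28% ± 1.61 and 4.83% ± 2.84 in the same order of genes (SD, n = 4). Cells with neither lay between, with NKG7 in 50.2%, GZMK in 33.7% and GZMB in 18.7% (n = 6 libraries). A CD4 UMI was in 45.2% of the subcluster led by IL10, described below. It was in 72.0% and 68.8% of those with CXCL13 and FOXP3 among their leading genes. The CD4 class thus misses CD4-rich cells unevenly, and the part of this in the results was not tested.

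**Figure D1:**
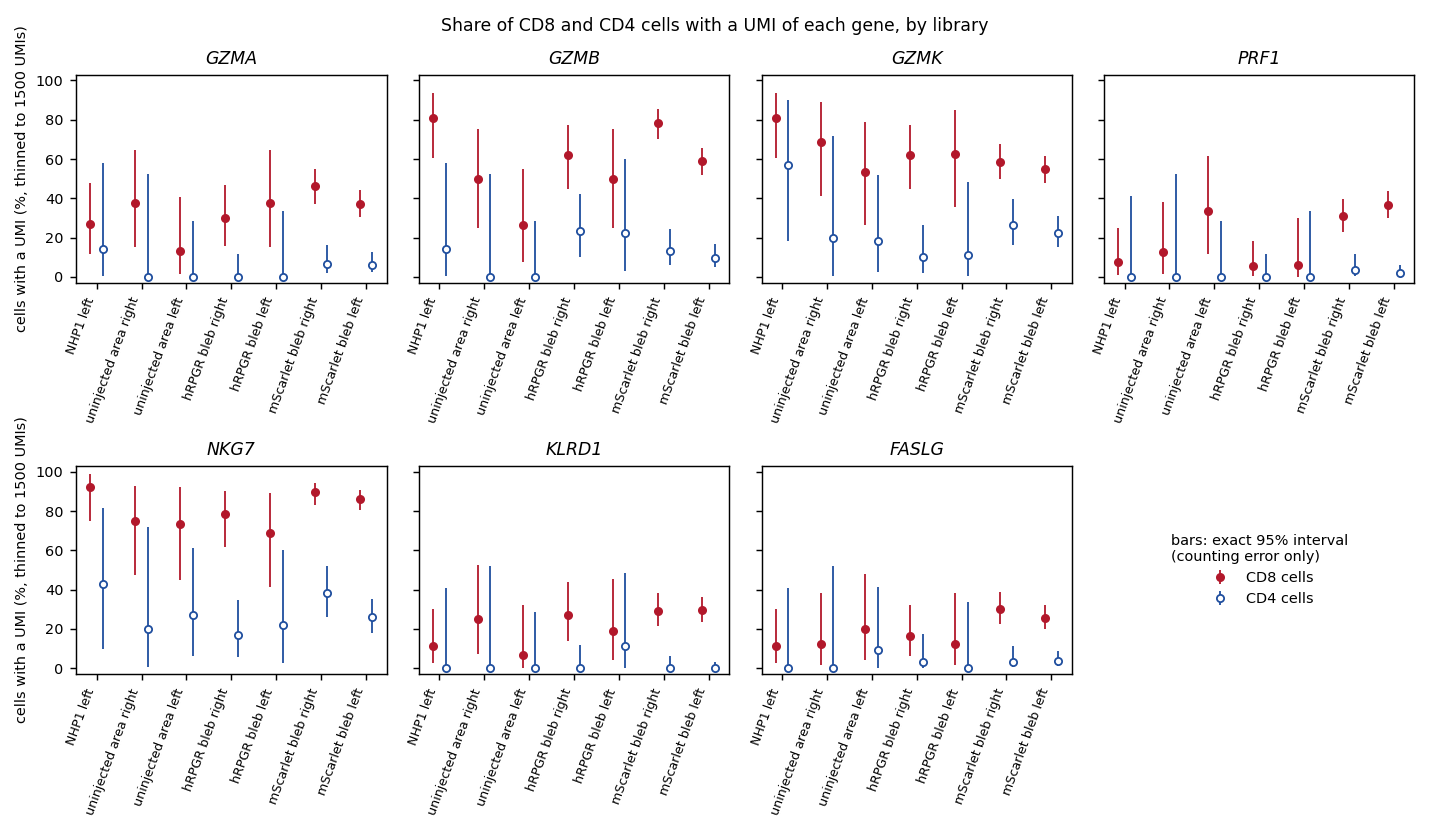
Share of CD8 and CD4 cells with a UMI of each gene, in percent, after thinning each cell to 1500 UMIs, for the 7 libraries other than NHP1 right (x axis), with exact 95% binomial intervals as bars that cover counting error only. KLRD1 was at 0% in CD4 cells of the 4 libraries tested, and each gene had a higher mean share in CD8 cells (NKG7 80.5% against 27.0%).

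The comparison of CD8 with CD4 cells asked which of the 7 genes differ between the 2 classes. Counts were summed per library in the 4 libraries that had at least 10 cells of each kind (388 CD8 and 213 CD4 cells). These were the uninjected area of NHP2 left, the hRPGR area of NHP2 right and the mScarlet areas of the right and left eye, and values below follow this order, in counts per 1000000 UMIs of the summed cells (CPM). All 7 genes were higher in CD8 cells by edgeR's quasi-likelihood test at an adjusted p under 0.05. Of the 4579 genes tested, 348 (7.60%) passed, and 153 (3.34%) passed with a higher level in CD8 cells. The median log2 difference of the 7 genes was 3.58, against 0.02 over all genes tested. Genes with few or no UMIs in CD4 cells, such as PRF1 and KLRD1, could pass the low-count filter only through CD8 cells. For such genes the filter itself favours a higher level in CD8 cells. With no filter on low counts all 7 were also higher in CD8 cells at an edgeR adjusted p under 0.05. The CD8 class required no CD3 UMI, so it is not limited to T cells. In the subcluster described below where 44.0% of cells held an NCR1 or KLRF1 UMI, 64.0% held a CD8A or CD8B UMI. All 7 also passed without that subcluster and with a CD3 UMI required.

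The granzymes differed to unlike degrees. GZMA stood at 190, 432, 1056 and 779 CPM in CD8 cells and at 0, 0, 33.1 and 29.0 CPM in CD4 cells. GZMB stood at 621, 1340, 3264 and 2323 CPM in CD8 cells and at 18.1, 236, 328 and 105 CPM in CD4 cells. GZMK stood at 552, 706, 765 and 628 CPM in CD8 cells and at 271, 62.3, 275 and 253 CPM in CD4 cells. For each granzyme the lowest CD8 value lay above the highest CD4 value. The share of all genes tested that separate in this way was not computed. Such a gap, here and below, thus does not by itself set a gene apart. The log2 fold change was 5.02 ± 0.27 for GZMA (SE, edgeR adjusted p = 5.51e-09), 3.58 ± 0.25 for GZMB (adjusted p = 4.71e-08) and 1.67 ± 0.24 for GZMK (adjusted p = 0.000246).

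Perforin followed GZMA rather than GZMK in the size of its difference. PRF1 stood at 293, 173, 359 and 450 CPM in CD8 cells and at 18.1, 13.9, 10.2 and 6.11 CPM in CD4 cells. The groups did not overlap, and on the log2 scale CD8 cells were higher by 5.34 ± 0.33 (SE, adjusted p = 1.38e-08 by edgeR). NKG7, the granule membrane protein, stood at 1139, 1232, 1709 and 1618 CPM in CD8 cells and at 398, 194, 476 and 292 CPM in CD4 cells. It was seen in CD4 cells of all 4 libraries, again below every CD8 value, with a log2 difference of 2.18 ± 0.17 (SE, adjusted p = 1.56e-07 by edgeR).

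The 2 surface members also separated the cells. KLRD1 stood at 69.0, 173, 330 and 365 CPM in CD8 cells and had no UMI in the 213 CD4 cells of these libraries, which allows up to 1.41% of CD4 cells to carry a KLRD1 UMI and sets no limit on cells expressing it. Against a floor of 3 counts over the CD4 group, KLRD1 was at least 138-fold higher in CD8 cells (edgeR adjusted p = 3.43e-08). FASLG stood at 86.3, 79.2, 244 and 229 CPM in CD8 cells and at 18.1, 13.9, 25.5 and 27.5 CPM in CD4 cells, a log2 difference of 3.07 ± 0.23 (SE, adjusted p = 1.38e-07 by edgeR). The lowest CD8 value of FASLG was again above its highest CD4 value.

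The ranges of summed markers of other cells overlapped between the CD8 and the CD4 sums, though within a library, where the test pairs them, they differed. The summed level of 15 myeloid markers, a list that matters since myeloid cells also express CD4, was 397 to 2166 CPM in CD8 and 723 to 2002 CPM in CD4 sums. Most of this sum was CD74, a chain of antigen presentation that lymphocytes also express and that 80.3% of T/NK-like cells held. Without CD74 the other 14 markers summed to 34.5, 144, 114 and 139 CPM in CD8 and to 90.4, 62.3, 45.8 and 36.6 CPM in CD4 sums, higher in CD8 in 3 of the 4 libraries, and the part of this in the results was not tested. The sum of 8 rod markers was 3832, 3500, 1247 and 628 CPM in CD8 and 4124, 1330, 341 and 1021 CPM in CD4 sums. Rod markers were thus higher in CD8 in hRPGR right and mScarlet right and higher in CD4 in uninjected left and mScarlet left. Their part in the results was not tested. S100A8 and S100A9 had no UMI in the T/NK-like class.

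Among 20 further genes of granule content and release, 18 were tested, of which 5 rose and 1 fell in CD8 cells, with a median log2 difference of 0.30. CTSW (cathepsin W), at 362, 115, 198 and 208 CPM in CD8 cells and at 0, 0, 0 and 6.11 CPM in CD4 cells, differed by 5.87 ± 0.39 (log2, SE, edgeR adjusted p = 3.36e-08). The size of this fold rests on very few CD4 counts and is loosely set. GZMM (granzyme M) rose by 1.46, GNLY (granulysin) by 1.35, CST7 (cystatin F, an inhibitor of granule cathepsins) by 1.29 and LYST (a regulator of lysosome size) by 1.25. GNLY was less even, since in the hRPGR area of the right eye it stood at 230 CPM in CD8 and 360 CPM in CD4 cells. SRGN (serglycin), the proteoglycan that packs granzymes, fell by 0.93 on the log2 scale, from 2297, 2750, 2256 and 2786 CPM in CD4 cells to 898, 1059, 1515 and 1728 CPM in CD8 cells. The genes of granule docking and fusion in the list were not among those that passed, other than LYST.

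Of 17 killer lectin and NK receptor genes 12 were found by their symbol, and 2 of these, KLRB1 and CRTAM, passed the filter on low counts. Both rose, by 1.24 and 2.54 on the log2 scale. KLRK1, which the files name NKG2D, was not matched by symbol and is not in this count, although it passed the filter (edgeR adjusted p = 4.56e-09, higher in CD8 cells). Of 12 effector cytokines and chemokines 4 were tested. The chemokine CCL5 rose by 6.51, from 0, 0, 45.8 and 3.05 CPM in CD4 to 690, 1102, 1748 and 1352 CPM in CD8 cells, and CCL3 rose by 2.16. The size of the CCL5 fold likewise rests on few CD4 counts. LTB (lymphotoxin beta) fell by 0.86 in CD8 cells, and IFNG (interferon gamma), the type 1 cytokine, differed by -0.84 ± 0.34 with an edgeR adjusted p of 0.186.

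Transcription factors divided evenly, with 4 of 12 tested higher and 4 lower in CD8 cells. The median log2 difference of the 12 was -0.12, and 6 of them lay above 0. HOPX (2.80), EOMES (1.71), ZEB2 (1.65) and ID2 (1.45), factors of effector and memory killer cells, were higher. TBX21, PRDM1 and RUNX3, effector factors of the same list, were not among those that passed. LEF1 and TCF7, factors of naive and stem-like T cells, fell by 2.44 and 1.18, IKZF2 (Helios) fell by 1.82 and BHLHE40 by 0.85. EOMES was higher in CD8 cells in 3 of the 4 libraries and lower in NHP2 uninjected left, at 121 CPM against 181 CPM. Of the receptors and inhibitors that the granule proteins meet, SERPINB1, an inhibitor of granule proteases, rose by 1.16, CFLAR, which blocks the death signal of FAS, fell by 1.02, and SERPINB9, the inhibitor of granzyme B, differed by 0.30 with an adjusted p of 0.537. Of 7 helper genes tested 6 fell in CD8 cells, among them CTLA4 by 2.28, CXCL13 by 4.47, CCR7 by 1.97 and ICOS by 1.08, and none of the 4 cycling genes passed.

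The number of the 7 genes held per cell was also counted. High single shares alone raise this count, so it does not show that the genes go together. After thinning, a CD8 cell held a median of 3 of the 7 genes, 43.1% held at least 4 and 2.90% held none. A CD4 cell held a median of 0, 1.71% held at least 4 and 61.1% held none. Among CD8 cells with a GZMB UMI 48.8% had GZMA, against 17.6% of those without, and the order was the same in the mScarlet areas of the right eye (55.6% against 11.1%) and the left (49.2% against 19.8%). In hRPGR right these were 8 of 23 (34.8%, exact 95% interval 16.4 to 57.3%) and 3 of 14 (21.4%, 4.66 to 50.8%), which the intervals do not separate. PRF1 was in 59 of 263 CD8 cells with GZMK (22.4%) and in 70 of 185 without (37.8%). In mScarlet left it was in 32 of 115 cells with GZMK (27.8%) and in 45 of 95 without (47.4%). In mScarlet right these were 21 of 74 (28.4%, exact 95% interval 18.5 to 40.1%) and 18 of 52 (34.6%, 22.0 to 49.1%), which the intervals do not separate, and in hRPGR right 1 of 23 and 1 of 14, too few to give an order. These shares describe cells of few libraries, and cells are not replicates.

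The amount per cell was uneven. A CD8 cell with any UMI of the gene held a median of 10.5 UMIs of GZMB, 7 of NKG7, 4 of GZMA, 4 of GZMK, 3 of KLRD1, 2 of PRF1 and 1 of FASLG, before thinning. The 45 CD8 cells with the most GZMA held 63.3% of its UMIs in CD8 cells, whereas the top 45 for NKG7 held 27.2% of its UMIs. This share was 53.7% for PRF1, 47.7% for KLRD1, 43.2% for FASLG, 41.1% for GZMB and 32.4% for GZMK. GZMA UMIs were thus the most unevenly spread and those of NKG7 the most even. GZMA was not confined to the top cells, since 169 CD8 cells held it after thinning. The part of depth in these counts was not tested.

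The T/NK-like cells were clustered again with the 7 genes left out of the variable genes, and the values by subcluster are a description with no test. The CD8-rich subcluster of 127 cells led by genes that include TIMD4, XCL1 and TNFRSF9 held PRF1 in 50.4%, GZMA in 53.5%, GZMB in 70.1%, KLRD1 in 37.0%, FASLG in 35.4% and GZMK in 43.3% of cells after thinning. The larger CD8-rich subcluster of 198 cells, led by genes that include KLRG1, CTSW, CCL5, GZMM and EOMES, held GZMK in 81.3% but PRF1 in 15.7%, with GZMA at 33.3%, GZMB at 57.1%, KLRD1 at 18.2% and FASLG at 20.2%. Leading genes were ranked against the mean of all other subclusters, so they need not separate these subclusters from each other. CCL5 was at 1694 CPM in the first and 1560 CPM in the second, seen before thinning in 92.9% and 67.2% of cells. NKG7 was alike in both, at 88.2% and 89.4%. The contrast of PRF1 and GZMK was present in both mScarlet areas, where PRF1 was in 50% (right) and 51.9% (left) of the first subcluster and in 14.7% and 17.4% of the second, and GZMK in 50% and 36.7% of the first and in 75.0% and 84.4% of the second.

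The other subclusters showed partial sets. A CD4-rich subcluster of 124 cells led by IL10 held NKG7 in 68.5%, GZMK in 43.5% and GZMB in 33.1% of cells but PRF1 in 0.806% and KLRD1 in 1.61%. The 75 cells led by CXCL13, IL2 and IL21 and the 80 cells with FOXP3 among the leading genes, both CD4-rich, held each of the 7 genes in at most 4.00%. The 64 cells with CCR7 and LEF1 among the leading genes held NKG7 in 25.0% and GZMK in 14.1%. A group of 21 cells with TRGV9, IL23R and ZBTB16 among its leading genes had PRF1 in 57.1%. The 25 cells led by LILRA3 and FCER1G, 44.0% of them with an NCR1 or KLRF1 UMI, held KLRD1 in 56.0% and GZMB in 76.0%. In 47 cells led by cycling genes (median 11882 UMIs), GZMK was in 10.6% and PRF1 in 29.8%. Subclusters with over 2 times the median level of rod and Müller markers were left out in an alternative, and 1 of these, with 84.8% of its 46 cells from NHP1 left, was led by the huRPE65 transgene although that library is labelled uninjected. In the clustering of all cells, huRPE65 also led clusters with 3184 of 3230, 3525 of 3584 and 2077 of 2429 cells from NHP1 left. RNA of this transgene was thus present in that punch, whatever its label.

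**Figure D2:**
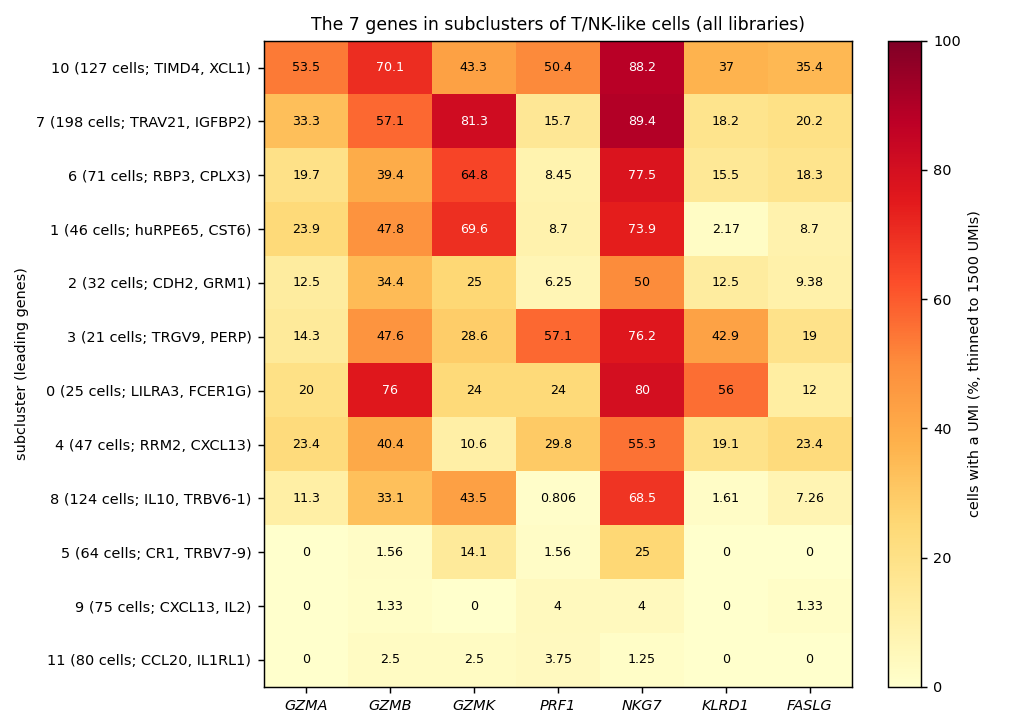
Share of cells with a UMI of each gene (columns) after thinning to 1500 UMIs, in percent as colour and number, by subcluster of T/NK-like cells with at least 20 cells (rows, with leading genes). PRF1 reached 50.4% and GZMK 43.3% in the subcluster of 127 cells, against 15.7% and 81.3% in that of 198 cells, whose label shows TRAV21 and IGFBP2.

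CD8 cells were also split by checkpoint genes (PDCD1, TIGIT, LAG3 and HAVCR2, receptors that restrain T cells), as a description of cells pooled over libraries, 336 of 448 of them from the mScarlet areas. In CD8 cells with UMIs of none, 1, or at least 2 of these genes after thinning (192, 150 and 106 cells), the thinned share with GZMK was 65.1%, 62.7% and 41.5%, while PRF1 was in 20.8%, 28.0% and 44.3%, GZMB in 57.8%, 64.7% and 76.4%, and GZMA in 29.7%, 39.3% and 50%. KLRD1 was in 20.8%, 28.7% and 35.8%, FASLG in 17.7%, 25.3% and 34.0%, and NKG7 in 79.7%, 88.7% and 91.5%. Within mScarlet right GZMK was in 62.5%, 66.7% and 44.4% and PRF1 in 14.6%, 38.1% and 44.4%, and within mScarlet left GZMK was in 64.9%, 57.7% and 40% and PRF1 in 32.4%, 30.99% and 47.7%. The order of the pooled steps was therefore not that of each library, with the middle step highest for GZMK in the right eye and lowest for PRF1 in the left, and lowest for GZMB in the left (59.5%, 49.3% and 69.2%). KLRD1 was in fewer cells of the last step (27.8%) than of the middle (28.6%) in the right eye. The median depth of these cells before thinning was 3978.5, 4251.5 and 5289 UMIs, so depth moves with this split and its part was not tested. The split also overlaps the subclusters above and in part restates their contrast. Before thinning, TIGIT, PDCD1, LAG3 and HAVCR2 were in 95.3%, 63.8%, 67.7% and 37.0% of the subcluster of 127 cells. In that of 198 cells they were in 59.1%, 26.3%, 21.7% and 2.53%. In CD4 cells split the same way (67, 114 and 53 cells) GZMK was in 31.3%, 21.9% and 11.3% and NKG7 in 41.8%, 27.2% and 13.2%. In the 37 CD8 cells with at least 2 UMIs of cycling genes GZMK was in 18.9% and PRF1 in 48.6%, against 62.3% and 27.0% in the other 411 (median 11054 against 4264 UMIs).

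The areas of NHP2 were compared on counts summed over all T/NK-like cells of a library, with 2 libraries per area, to ask whether the granule genes differ between the vectors and from uninjected retina. The vectors also differed in dose and preparation, which cannot be told apart from the transgene here. Values are given in CPM as right eye, then left. GZMA was at 357 and 99.2 in the uninjected, 182 and 134 in the hRPGR, and 561 and 421 in the mScarlet areas. GZMB was at 967 and 291, 687 and 1423, and 1887 and 1300 in the same order. PRF1 was at 150 and 119, 72.1 and 73.3, and 197 and 236. The mScarlet values of GZMA and PRF1 lay above those of both other areas in both eyes, whereas GZMB in hRPGR left lay above mScarlet left. That order rests on 1 cell, with 160 GZMB UMIs and no NKG7 UMI, without which GZMB in hRPGR left was at 793 CPM and below mScarlet left. This value and the myeloid sum without CD74 were computed after seeing the data. The share of all genes tested that were highest in mScarlet in both eyes was not computed.

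FASLG was at 138 and 39.7 in the uninjected, 45.1 and 25.9 in the hRPGR, and 143 and 135 in the mScarlet areas. KLRD1 was at 207 and 26.5, 81.1 and 112, and 175 and 195 in the same order. GZMK was at 541 and 377, 383 and 362, and 570 and 485, and NKG7 at 1301 and 688, 793 and 776, and 1157 and 1061. For these 4 genes the uninjected area of the right eye, with 24 cells, was about as high as the mScarlet areas, while that of the left eye was lower, so the 2 uninjected libraries lay farther apart than the 2 mScarlet libraries. Rod markers in T/NK-like cells were at 3749 CPM in uninjected left and 967 CPM in uninjected right. Without the subclusters rich in retinal RNA, CD8 cells went from 15 to 2 in uninjected left and from 16 to 12 in uninjected right. The part of this in the levels was not tested.

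Between the mScarlet and hRPGR areas all 7 genes were higher in mScarlet in the fit, and 1 of 7, PRF1, passed. edgeR called 7 of 6299 genes (0.111%) in this comparison. PRF1 differed by 1.60 ± 0.23 on the log2 scale (SE, 95% interval 1.09 to 2.11, edgeR adjusted p = 0.0443), and by DESeq2 its adjusted p was 0.00235. FASLG differed by 1.89 ± 0.36 (edgeR adjusted p = 0.142), GZMA by 1.63 ± 0.38 (adjusted p = 0.186) and KLRD1 by 1.01 ± 0.42 (adjusted p = 0.502). GZMB (0.62), GZMK (0.52) and NKG7 (0.52) had edgeR adjusted p values of 0.763, 0.484 and 0.569. The GZMB value includes the cell with 160 UMIs, and was 1.08 without the subcluster that holds it, 1.28 without hRPGR left, 0.17 without hRPGR right and 0.31 without mScarlet right. The call of PRF1 was lost with the eye as a block (edgeR adjusted p = 0.0673), in CD8 cells alone (1.44, adjusted p = 0.265), without the subcluster with NCR1 and KLRF1 (adjusted p = 0.0620), without subclusters rich in retinal RNA (adjusted p = 0.0683) and without any 1 of the 4 bleb libraries (adjusted p between 0.126 and 0.459). Over all 15 alternatives its adjusted p ran from 4.48e-07 to 0.459 and its log2 difference from 1.44 to 2.99. The share of CD8 cells moves with this comparison, at 51.9% and 48.3% of T/NK-like cells in the mScarlet and 35.2% and 43.2% in the hRPGR areas, as do rod markers, at 943 and 857 CPM against 2710 and 1816 CPM, and their part in the PRF1 difference was not tested beyond these fits. The areas also differed in how their cells fell into subclusters. Of the 127 cells of the PRF1-rich subcluster, 44 and 79 came from the mScarlet areas, and without the subclusters rich in retinal RNA the CD8 cells went from 37 to 7 and from 16 to 13 in the hRPGR areas, against 126 to 115 and 210 to 197 in the mScarlet areas.

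Against the uninjected areas none of the 7 genes passed. For mScarlet against uninjected, edgeR called 0 of 6299 genes (0%), 713 had an unadjusted p under 0.05, and DESeq2 called 57 genes, none of them a member. In this fit the differences of the members were all above 0, though those of NKG7 and KLRD1 were below 0 without the uninjected library of the left eye. They were 1.23 ± 0.43 for GZMA, 1.40 ± 0.49 for GZMB and 0.71 ± 0.26 for PRF1 (log2, SE, edgeR adjusted p = 0.346, 0.346 and 0.351). Over all alternatives these differences ran from 0.50 to 3.44 for GZMA, 0.76 to 3.51 for GZMB and 0.58 to 3.10 for PRF1. With cells chosen by at least 2 CD3 UMIs whatever their cluster, all 7 passed in this comparison, where edgeR called 3219 of 12244 genes (26.3%). This gate held 61 and 131 cells in the uninjected areas against 24 and 36 T/NK-like cells. Under the gate the uninjected and the mScarlet areas differed in markers of other cells, with rod markers at 7010 and 5727 against 1815 and 1261 CPM, plasma cell markers at 112 and 98.3 against 5046 and 5283 CPM, and myeloid markers at 303 and 1000 against 1958 and 3216 CPM. With doublets kept 5 of the 7 passed, and 1422 of 8449 genes (16.8%) did so in all, with rod markers at 4459 and 8390 against 2806 and 1998 CPM and Müller markers at 6121 and 5444 against 933 and 1735 CPM. The part of these cells in the calls was not tested. For hRPGR against uninjected, edgeR called 1 of 6299 genes (0.0159%), 306 genes had an unadjusted p under 0.05, and 0 of 7 members passed by edgeR or by DESeq2. GZMB differed by 0.78 (95% interval -0.35 to 1.90), PRF1 by -0.89 (-1.59 to -0.19) and FASLG by -1.06 (-2.31 to 0.19), with edgeR adjusted p values of 0.959, 0.958 and 0.959. The GZMB value includes the cell with 160 UMIs, and was 0.25 without the subcluster that holds it and 0.21 without hRPGR left, with a range of 0.12 to 1.85 over all alternatives. All 3 area comparisons draw on the same 6 libraries.

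**Figure D3:**
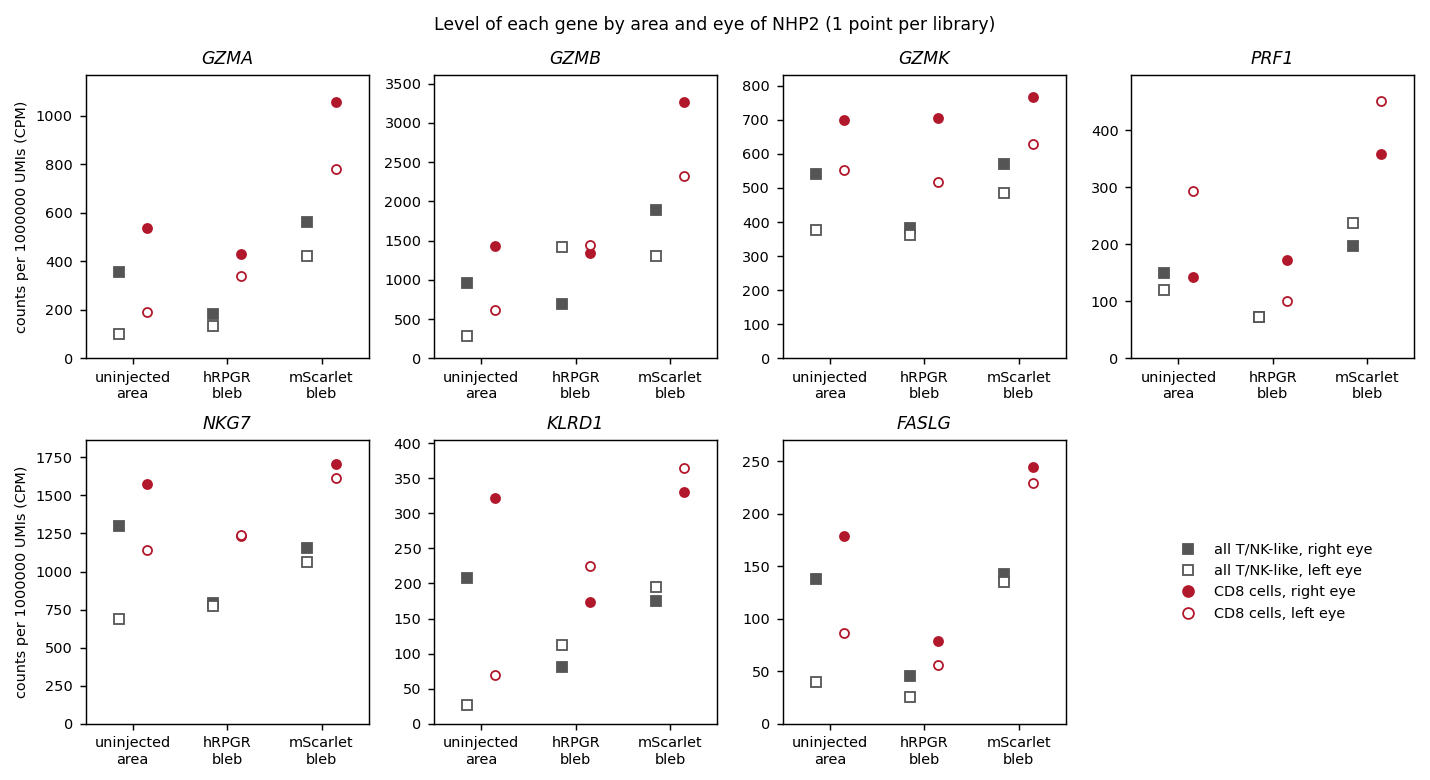
Level of each gene in T/NK-like cells of NHP2, in CPM (y axis), for the uninjected, hRPGR and mScarlet areas (x axis), with squares for all T/NK-like cells and circles for CD8 cells, filled for right and open for left eyes. PRF1 was at 72.1 and 73.3 CPM in the hRPGR and at 197 and 236 CPM in the mScarlet areas, while the 2 uninjected libraries differ widely for GZMA, GZMB and KLRD1.

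CD8 cells taken alone gave the following levels over the 7 libraries. GZMA ranged from 190 CPM (uninjected left) to 1056 CPM (mScarlet right), with 366 CPM in NHP1 left, and GZMB from 621 to 3264 CPM in the same 2 libraries, with 2310 CPM in NHP1 left. PRF1 was lowest in NHP1 left (91.6 CPM) and hRPGR left (101 CPM) and highest in mScarlet left (450 CPM). GZMK had its highest level in NHP1 left, at 1343 CPM, against 518 to 765 CPM in the 6 NHP2 libraries. These NHP1 left values come from 26 CD8 cells of 1 library of the other animal, with no replicate and no test. Only 4 of the 26 lay outside the subclusters rich in rod and Müller RNA, so this class sits in other clusters here than in the mScarlet libraries. Of the 47 T/NK-like cells of NHP1 left, 39 were in the subcluster led by huRPE65, so these values do not stand for retina free of vector.

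Left and right eyes, which by the methods differ in adalimumab, were compared over the 3 areas of NHP2. edgeR called 1 of 5622 genes (0.0178%), 189 had an unadjusted p under 0.05, DESeq2 called 4, and 0 of the 7 members passed by either tool. GZMA was lower in the left eye in each of the 3 areas, at 99.2 against 357, 134 against 182 and 421 against 561 CPM, a log2 difference of -0.71 ± 0.25 (95% interval -1.27 to -0.14, edgeR unadjusted p = 0.0187, adjusted p = 1.00). In CD8 cells alone it was also lower in each left eye, at 190 against 537, 338 against 432 and 779 against 1056 CPM. PRF1 differed by 0.10 (95% interval -0.38 to 0.57), and by -0.10 without either mScarlet library. The 95% intervals of the other 5 genes all included 0 and reached from -1.10 (GZMB) to 0.70 (KLRD1). Of these, GZMK, NKG7 and FASLG were also lower in the left eye in each of the 3 areas, while GZMB and KLRD1 were not. The share of all genes tested that were lower in each left eye was not computed. Such an order thus does not by itself set these genes apart.

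Whether the difference between CD8 and CD4 cells itself differs between the mScarlet and hRPGR areas was tested as an interaction over the bleb libraries. edgeR called 9 of 4567 genes (0.197%), 415 had an unadjusted p under 0.05, DESeq2 called 6, and 0 of the 7 members passed by either tool. GZMB came nearest, with a log2 difference of 3.10 ± 0.66 toward mScarlet (edgeR adjusted p = 0.0881). In hRPGR left, GZMB stood at 2212 CPM in 9 CD4 cells, where 160 of its 182 UMIs came from 1 cell, and without the subcluster that holds this cell the difference was 1.48 (adjusted p = 0.299). GZMK differed by -1.36 ± 0.41 (adjusted p = 0.267), and GZMA had no UMI in the 30 and 9 CD4 cells of the hRPGR areas, so that no fold is given (adjusted p = 0.375). Leaving out 1 of the 4 bleb libraries leaves its area with 1 library, which is then assumed to vary like the others. GZMB passed in each of these fits, with log2 differences of 4.39 without hRPGR right, 1.38 without hRPGR left, 3.62 without mScarlet right and 2.54 without mScarlet left, where edgeR called 1.94%, 0.976%, 1.30% and 0.630% of all genes. Without hRPGR left GZMK passed too, in the other direction (-2.07).

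At least 50 GZMB UMIs were counted in 24 cells of the series. Of these, 17 were T/NK-like cells with NKG7, holding 50 to 146 GZMB UMIs each, and 14 of them also had PRF1 and 14 KLRD1. The other 7, with 76 to 331 GZMB UMIs, had no UMI of any of the other 6 genes, and 6 of these stood in the B-like class, which accounts for 1031 of the 1036 GZMB UMIs of that class. The seventh was the hRPGR left cell, which differed from the other 6 in holding 13 CD3 UMIs, against 0 or 1. All 7 held UMIs of SPIB, IRF8, PTCRA and TCF4, whereas of the 17 T/NK-like cells none held SPIB or PTCRA. These cells were chosen after their values were seen, and no name is given to them since no markers for such a cell were fixed.

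**Figure D4:**
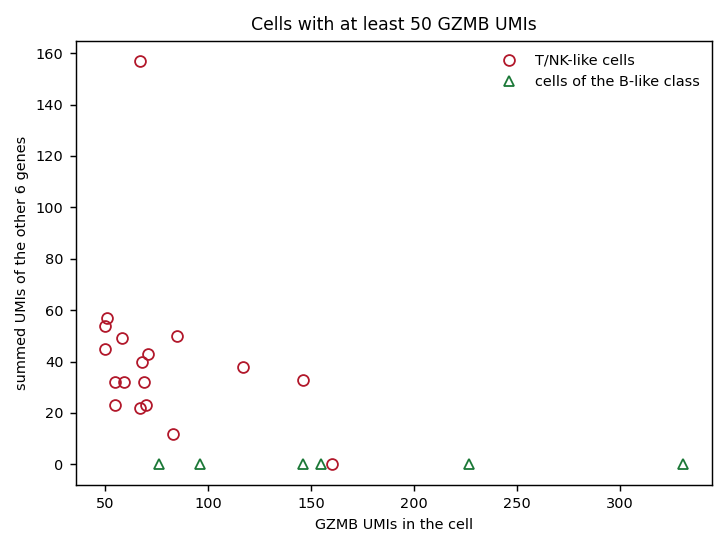
UMIs of GZMB (x axis) against summed UMIs of the other 6 genes (y axis) in the 24 cells with at least 50 GZMB UMIs. The 17 T/NK-like cells with NKG7 lie apart from 7 cells that have none of the other 6 genes and reach 331 GZMB UMIs.

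Across 10 sums of at least 20 cells (CD8, CD4 and neither, by library), the genes whose log level was most like that of each member were found by Pearson correlation, as a description over sums that share libraries and depth, with no test. These sums mix CD8 cells with other cells, so r in part restates the difference between CD8 and CD4 cells. GZMB was nearest to PRF1 (r = 0.94), and NKG7 to CCL5 (0.96). Within CD8 cells after thinning, PRF1 was in 29.4% of cells with GZMB and in 27.7% of those without. These shares were 32.3% and 25.9% in mScarlet right and 35.5% and 38.4% in mScarlet left. GZMK was nearest to SHISAL2A (0.98) and GZMM (0.96), GZMA to CERS6 (0.97), PRF1 to FGR (0.96) and FASLG to PDGFD (0.97). KLRD1 was nearest to NKG2D (0.99) and close to EOMES (0.97).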

How the data were processed

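Single-cell libraries (10x 5′ chemistry) had been aligned and counted by the authors with Cell Ranger 8.0.1, per the file headers, against Mmul_10 with 3 added transgene features. The deposited files hold raw UMI counts for all barcodes, with no correction for free RNA and no cell names. The study's SoupX and Harmony steps were not repeated, so differences from the study may come from rebuilt cells and names. Of the features, 16681 had a symbol in the files, 521 took one from a gene table and 9331 kept an identifier only.

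A barcode was taken as a cell (91796 in all) when it held 1500 or more UMIs of 300 or more genes, with mitochondrial UMIs not above 20%. Scrublet scores were computed within each library with scanpy 1.11.5. Its automatic threshold marked 0 to 700 cells a library and was replaced by a fixed rate of 0.8% per 1000 cells, which removed the 8604 highest scores (9.37%). The other cells were clustered with 3000 variable genes, 40 components, 15 neighbours and Leiden resolution 2 (leidenalg 0.10.2), leaving the 7 genes out of the variable genes, and 65 clusters were named by fixed markers, with naming rules set after the clusters were seen. Of these, 27 (41.8% of cells) stayed unnamed. T/NK-like cells were clustered again with 1500 variable genes, 20 components and resolution 1.

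Counts were summed per library and class with at least 10 cells (the interaction also used a sum of 9 cells) and tested with edgeR 4.0.16 (R 4.3.3), TMM scaling, filterByExpr and quasi-likelihood F tests, with Benjamini-Hochberg adjustment over all genes tested and a threshold of 0.05. DESeq2 1.42.0 was an alternative. SEs were taken from the fold change and its F statistic. The comparison of CD8 with CD4 cells and the interaction had the library as a block, since both sums come from the same punch, and the 3 area comparisons shared 1 fit of the 6 NHP2 libraries, the eye comparison had the area as a term, and an eye block was an alternative for the areas, where the right and left eye numbers mark the same eye of 1 animal. Shares carry 95% Clopper-Pearson (exact) intervals and limits for a count of 0 take 3 counts, and both cover counting error only. Simulated data with known changes were used to test the fits: of genes changed by a log2 fold of 2, 100% were recovered for CD8 against CD4 cells, 72.4% for mScarlet against uninjected, 92.2% for mScarlet against hRPGR and 98.1% for left against right eyes. The simulation drew all libraries from 1 mean profile, with no effect of library or eye, and gave 3 to 10 false calls per comparison. The 7 genes differed by less than this fold between the mScarlet and hRPGR areas, so the rates do not measure the power to call them. The 7 genes, the gene lists and the tests were chosen with earlier results of these data known. Genes named are the 7, members of the fixed lists and, for each of the 7, the genes of most similar log level over 10 sums of at least 20 cells. Outside that rule, and chosen after values were seen, are the leading genes of subclusters and SPIB, IRF8, PTCRA and TCF4. Alternatives changed 1 choice at a time (low-count filter, tool, depth, gate, doublets, class split, block, each library). The exception was DESeq2, which was run without the low-count filter of edgeR, on 15590 genes for CD8 against CD4 cells and 16247 for the areas. Its counts thus reflect a change of tool and filter together. Promoter sequence and gene positions are from RefSeq on Mmul_10, and the promoter of GZMK is not reported here.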

Additional observations from a re-analysis of the deposited data

How the results depend on the processing

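The calls of the 7 genes in CD8 against CD4 cells were kept wherever a gene was tested, with 6 to 7 called when 1 library was left out and 5, all that were tested, with doublets kept and by subclusters (KLRD1 and FASLG were not tested there). Over all alternatives the log2 difference ran from 2.74 to 3.87 for GZMB, 1.33 to 2.04 for GZMK and 1.62 to 2.51 for NKG7. Without the subclusters rich in retinal RNA only the 2 mScarlet libraries held at least 10 cells of each kind. There CD8 cells went from 15 to 2 in uninjected left and 37 to 7 in hRPGR right, and CD4 cells from 11 to 7 and 30 to 28. Of all genes, 348 were called, against 596 with no filter on low counts, 189 by DESeq2, 169 with the CD3 gate, 173 with doublets kept and 152 without the replicate block, and 144 to 423 without 1 library. mScarlet against uninjected had 0 of the 7 called, but 2 with no filter, 7 with the CD3 gate and 5 with doublets kept (0 to 0 without 1 library), and 0 genes in all, but 289, 3219 and 1422 under those settings, 57 by DESeq2 and 1 to 13 without 1 library. hRPGR against uninjected had 0 called, but 1 with no filter (0 to 0 without 1 library), and 1 gene in all, but 48 with no filter, 2 by DESeq2, 6 with doublets kept, 0 at 3000 UMIs, with the CD3 gate, in CD8 cells alone and without either set of subclusters, and 0 to 2 without 1 library. mScarlet against hRPGR had 1 called (PRF1), but 5 with no filter, 4 with the CD3 gate, 0 with the eye as replicate block, 0 in CD8 cells alone, 0 without the NCR1 and KLRF1 subcluster, 0 without the subclusters rich in retinal RNA and 0 to 3 without 1 library. Of all genes 7 were called there, but 268, 923 and 12 with no filter, the CD3 gate and doublets kept, 0 in CD8 cells alone, 4 without the retinal subclusters and 1 to 20 without 1 library. Left against right eyes had 0 called throughout (0 to 0 without 1 library), and 1 gene in all, but 53 with no filter, 4 by DESeq2, 0 with doublets kept or in CD8 cells alone, 3 without the NCR1 and KLRF1 subcluster, 4 without the retinal subclusters and 0 to 21 without 1 library. The difference between the blebs had 0 called, but 1 without the retinal subclusters and 1 to 2 without 1 library, and 9 genes in all, but 0 with no filter or doublets kept, 4 with the CD3 gate or with CD8 cells by CD8B, 2 without the NCR1 and KLRF1 subcluster, 2 by subclusters and 17 to 136 without 1 library. The sign of PRF1 turned with the CD3 gate in hRPGR against uninjected (0.12) and in left against right eyes (-0.28), and in the latter it ran from -0.10 to 0.20 when 1 library was left out, below 0 without either mScarlet library. Over the 7 genes and all alternatives, 19 of 105 differences had the other sign in hRPGR against uninjected, 10 of 98 in left against right eyes, 2 of 105 in mScarlet against uninjected and 1 of 95 in the difference between the blebs. The 2 alternatives that leave out subclusters were chosen after seeing the data. The eye block changed no other call of the 7 genes. The causes were not tested. The uninjected areas held 24 and 36 T/NK-like cells, which limits the depth of the comparisons that use them.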
